A study of Mus musculus with 10 samples.

Results

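The genes described here make cholesterol and fatty acids from acetyl-CoA or control that synthesis. There were 35 of them, out of 18820 genes that had a probe set with a single gene symbol. Each was found by its symbol in the platform annotation, and where a gene had several single-symbol probe sets the brightest over all 10 arrays was taken, which applied to 4 genes. The sterol arm held 19 genes and the fatty acid arm 16, and all 35 were measured. Expression came from Affymetrix whole-transcript arrays of mouse colonic organoids. These are cultures of colon epithelium, started from crypts and kept in Matrigel with Wnt, Noggin, R-spondin and EGF. The 4 groups were PPARγ knockout (KO) organoids with 1 µM rosiglitazone (3 arrays, replicates 1, 2 and 3 from mice 46, 45 and 44), KO organoids with vehicle (2 arrays, mice 46 and 44), wild-type (WT) organoids with rosiglitazone (3 arrays, mice 48, 42 and 47) and WT organoids with vehicle (2 arrays, mice 42 and 47). Exposure lasted 24 h in all groups, and the vehicle was 0.1% DMSO. All mice were male on a C57BL/6J background, and no source used here gives their ages. The KO mice were homozygous for Pparg with loxP sites around exons 1 and 2 and carried Cre under the villin promoter, which is active in the intestinal epithelium, and the WT mice were their littermates. Rosiglitazone is an agonist of PPARγ, a nuclear receptor for fatty acids.

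Cells make cholesterol through the mevalonate pathway, which runs from HMG-CoA to squalene and then through lanosterol to cholesterol. Fatty acids are made from acetyl-CoA by carboxylation to malonyl-CoA, chain building by fatty acid synthase, and later elongation and desaturation. Both arms are driven by the SREBP transcription factors, made from Srebf1 and Srebf2, which SCAP escorts out of the endoplasmic reticulum and which INSIG1 holds back when sterols are plentiful. Insig1 is itself a target of SREBP, so its transcript is widely read together with those of the synthesis enzymes.

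Promoters are printed for 4 genes, because Insig1, Lss and Acacb carried the largest genotype differences and Hmgcs1 held the sterol regulatory element letters. They run from 250 bases before to 50 after the start of the gene, on the plus strand of GRCm38.p6 (RefSeq). Capitals mark motif letters read on either strand.
Insig1, chr5:28071162-28071461: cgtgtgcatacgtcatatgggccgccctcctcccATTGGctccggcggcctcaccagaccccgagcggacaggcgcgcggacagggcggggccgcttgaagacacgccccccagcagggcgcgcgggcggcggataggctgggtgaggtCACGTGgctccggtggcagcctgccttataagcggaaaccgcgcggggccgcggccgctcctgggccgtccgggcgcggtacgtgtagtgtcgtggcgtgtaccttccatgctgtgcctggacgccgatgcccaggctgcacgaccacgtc
Lss, chr10:76531355-76531654: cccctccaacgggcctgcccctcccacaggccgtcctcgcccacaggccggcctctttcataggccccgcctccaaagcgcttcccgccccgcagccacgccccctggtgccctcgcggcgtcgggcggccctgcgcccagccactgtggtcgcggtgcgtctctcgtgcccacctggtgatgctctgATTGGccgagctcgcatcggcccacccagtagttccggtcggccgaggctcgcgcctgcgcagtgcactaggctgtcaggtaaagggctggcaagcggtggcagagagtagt
Hmgcs1, chr13:119690101-119690400: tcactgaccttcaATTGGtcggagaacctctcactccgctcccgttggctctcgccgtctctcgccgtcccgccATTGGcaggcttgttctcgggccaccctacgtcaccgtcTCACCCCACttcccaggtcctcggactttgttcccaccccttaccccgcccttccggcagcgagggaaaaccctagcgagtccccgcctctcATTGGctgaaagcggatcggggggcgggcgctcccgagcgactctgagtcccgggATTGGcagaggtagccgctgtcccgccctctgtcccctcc
Acacb, chr5:114165268-114165567: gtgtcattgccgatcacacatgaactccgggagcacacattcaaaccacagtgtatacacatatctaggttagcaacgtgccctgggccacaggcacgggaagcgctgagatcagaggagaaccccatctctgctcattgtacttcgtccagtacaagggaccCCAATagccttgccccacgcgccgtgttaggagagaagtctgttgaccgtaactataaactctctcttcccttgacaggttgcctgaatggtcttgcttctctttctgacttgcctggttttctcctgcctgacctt
Of the 35 genes, 29 had a promoter in the RefSeq table, 16 in the sterol arm and 13 in the fatty acid arm. Fdps, Fdft1, Sqle, Scd1, Scd2 and Fads1 were not in it. The letters CCAAT, the box that NF-Y binds beside SREBP at many sterol genes, stood in 15 of 16 sterol promoters and 10 of 13 fatty acid promoters, against 41.1% of the 27025 genes in the table. A sterol regulatory element, searched as TCACNCCAC, was found in Hmgcs1 and in Mlxipl, against 1.44% of genes. The E-box CACGTG, whose letters read the same on both strands, stood in 5 of 16 sterol promoters (Hsd17b7, Sc5d, Dhcr7, Insig1 and Scap) and 2 of 13 fatty acid promoters (Elovl5 and Mlxipl), against 8.09% of genes. The half-site AGGTCA repeated in one direction with 1 base between, the arrangement that PPAR binds with RXR, or with 4 bases between, that of LXR with RXR, was found in 0 of the 29 promoters and in 0.0481% and 0.0148% of genes. In the 4 promoters printed no motif overlapped another. A match is a run of letters in this window only.

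The cultures carried epithelial transcripts throughout. All 9 measured epithelial markers, such as Epcam and Vil1, lay above the array median on every array, with list means of 9.97 to 10.06 in KO rosiglitazone, 9.79 to 10.00 in KO vehicle, 9.87 to 10.04 in WT rosiglitazone and 9.96 to 10.12 in WT vehicle. The 14 markers of stromal, immune and fat cells averaged 2.95 to 3.10 on every array, but 2 of them lay above the array median throughout. Of these, Cd68 read 6.96 to 7.79 in KO and 7.90 to 8.45 in WT arrays, without overlap. The arrays of mouse 46 stood apart on the first principal component (27.4% of the variance), at -31.8 in rosiglitazone and -39.3 in vehicle, with the others at -4.1 to 19.6. The Pparg probe set read 7.37 to 8.78 in KO and 7.59 to 8.41 in WT arrays. Since exons 1 and 2 alone were floxed and probe positions were not used here, it checks neither the deletion nor the labels, so every genotype direction below rests on the labels.

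Of the whole pathway, Insig1 showed the clearest genotype difference. Values are log2 expression after RMA, the authors' normalization, so 1 unit is a doubling. Insig1 read 8.40, 8.81 and 8.65 in KO rosiglitazone, 8.38 and 8.34 in KO vehicle, 9.09, 9.14 and 9.49 in WT rosiglitazone and 9.15 and 9.39 in WT vehicle. All 5 KO arrays lay below all 5 WT arrays, and the arrays of each genotype came from 3 mice. KO minus WT averaged over both treatments was -0.73 (SE 0.14, 95% interval -1.03 to -0.43), or 1.66-fold lower, with 5 arrays in each genotype and the mouse as a random block in limma. It did not pass after adjustment over 23099 probe sets (adjusted p = 0.222, from 0.062 to 0.783 over 19 alternatives, all with KO lower). By its p-value it ranked 28 of 23099. Within treatments it was -0.62 (SE 0.15, adjusted p = 0.602) under rosiglitazone and -0.91 (SE 0.19, adjusted p = 0.527) under vehicle. Without both arrays of mouse 46, which leaves mouse 44 alone in KO vehicle, the averaged difference was -0.69. In such bulk cultures, fewer cells of a type and less RNA per cell cannot be told apart.

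**Figure D1:**
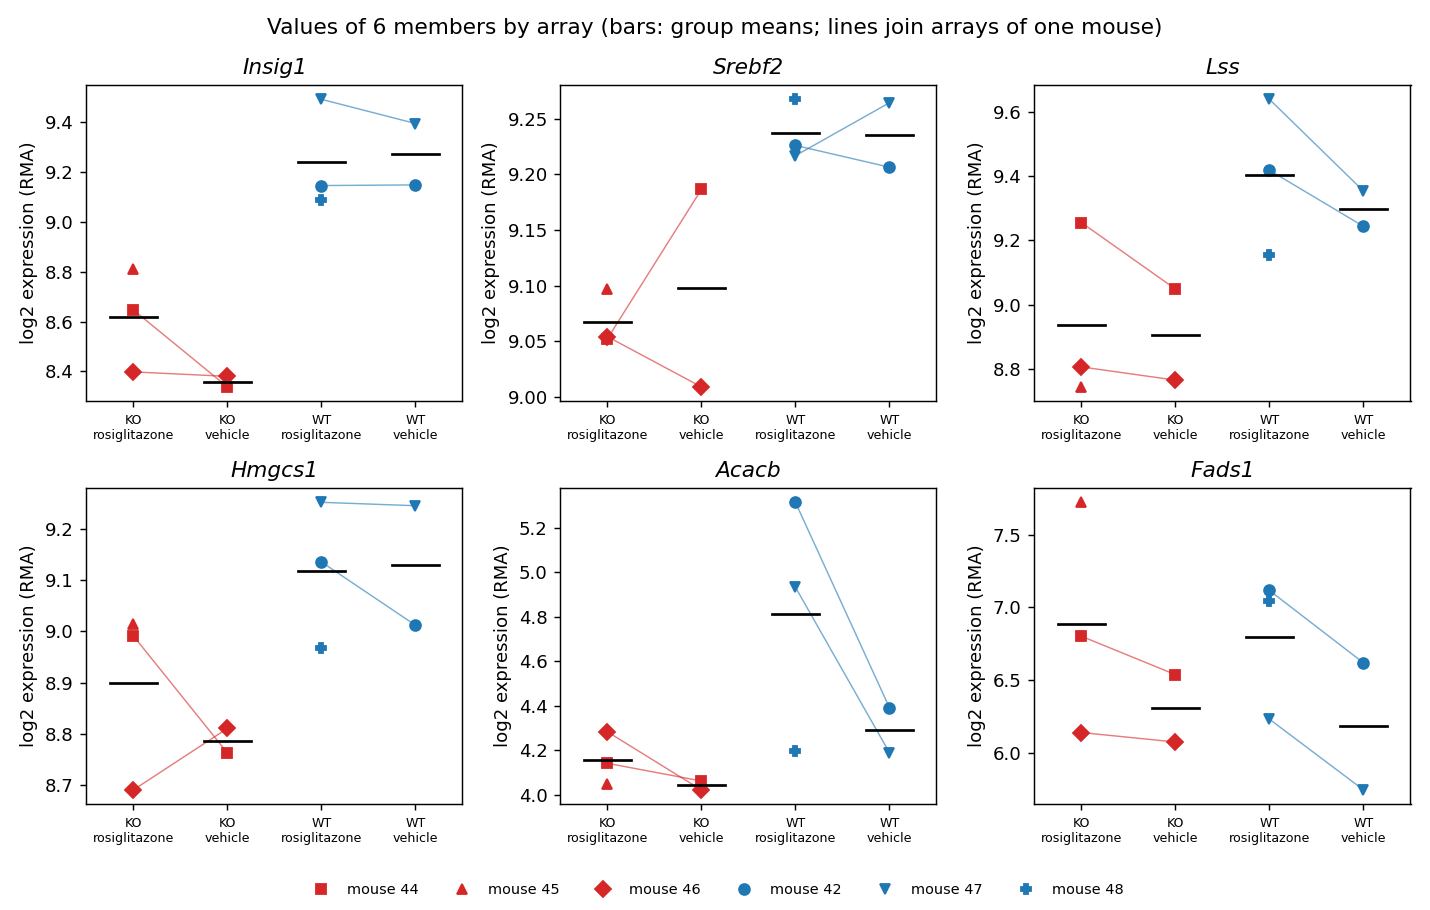
Log2 expression of 6 genes on each of the 10 arrays, in KO rosiglitazone, KO vehicle, WT rosiglitazone and WT vehicle organoids. Symbols are mice, bars are group means and lines join arrays of 1 mouse. The KO and WT arrays do not overlap for Insig1 and Srebf2.

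Markers of differentiated colonocytes, the absorptive cells of the colon, had unequal means between the groups. Their list of 13 genes averaged 6.96 to 7.24 in KO rosiglitazone, 6.67 to 6.92 in KO vehicle, 6.80 to 7.51 in WT rosiglitazone and 7.24 to 7.62 in WT vehicle, and 9 of the 13 lay above the array median on every array. Under vehicle 11 of 13 were lower in KO (median -0.30), with 0 past the threshold, where 55.6% of all probe sets were higher. Under rosiglitazone 9 of 13 were lower (median -0.07), where 50.5% of all probe sets were higher. The part of this marker list in the Insig1 difference was not tested.

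Over the whole sterol arm, 0 of 19 genes passed the threshold of an adjusted p of 0.05 in any of the 7 comparisons. For KO minus WT the share of all probe sets called was 0.0216% under rosiglitazone (5 probe sets), 0% under vehicle and 0.0433% averaged over both treatments (10 probe sets). At an unadjusted p under 0.05 in limma there were 2, 1 and 2 sterol genes in these comparisons, which were Insig1 in each and Lss in all but vehicle, against 1110, 1314 and 1009 of 23099 probe sets. Averaged over both treatments, 14 of 19 sterol genes were lower in KO (median difference -0.05), where the median of all probe sets was 0.01 and 53.4% of them were higher. On the scale of each gene's deviation from its own mean, the median of the 19 genes was -0.09 to -0.04 on the 5 KO arrays and -0.00455 to 0.08 on the 5 WT arrays. These ranges did not overlap. The array medians of all probe sets also differed, from 3.54 (KO rosiglitazone, mouse 46) to 3.72 (WT vehicle, mouse 42). Once each array was centred on its median the KO and WT ranges of the arm overlapped. Centring also took the median of the averaged differences to -0.01. Insig1 and Srebf2 were the 2 of 19 genes with all KO arrays below all WT arrays, a pattern found in 1.02% of all probe sets and in 1.58% of the brighter 11549. The opposite pattern, seen in 0.905% of probe sets, held for 0 of 19.

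**Figure D2:**
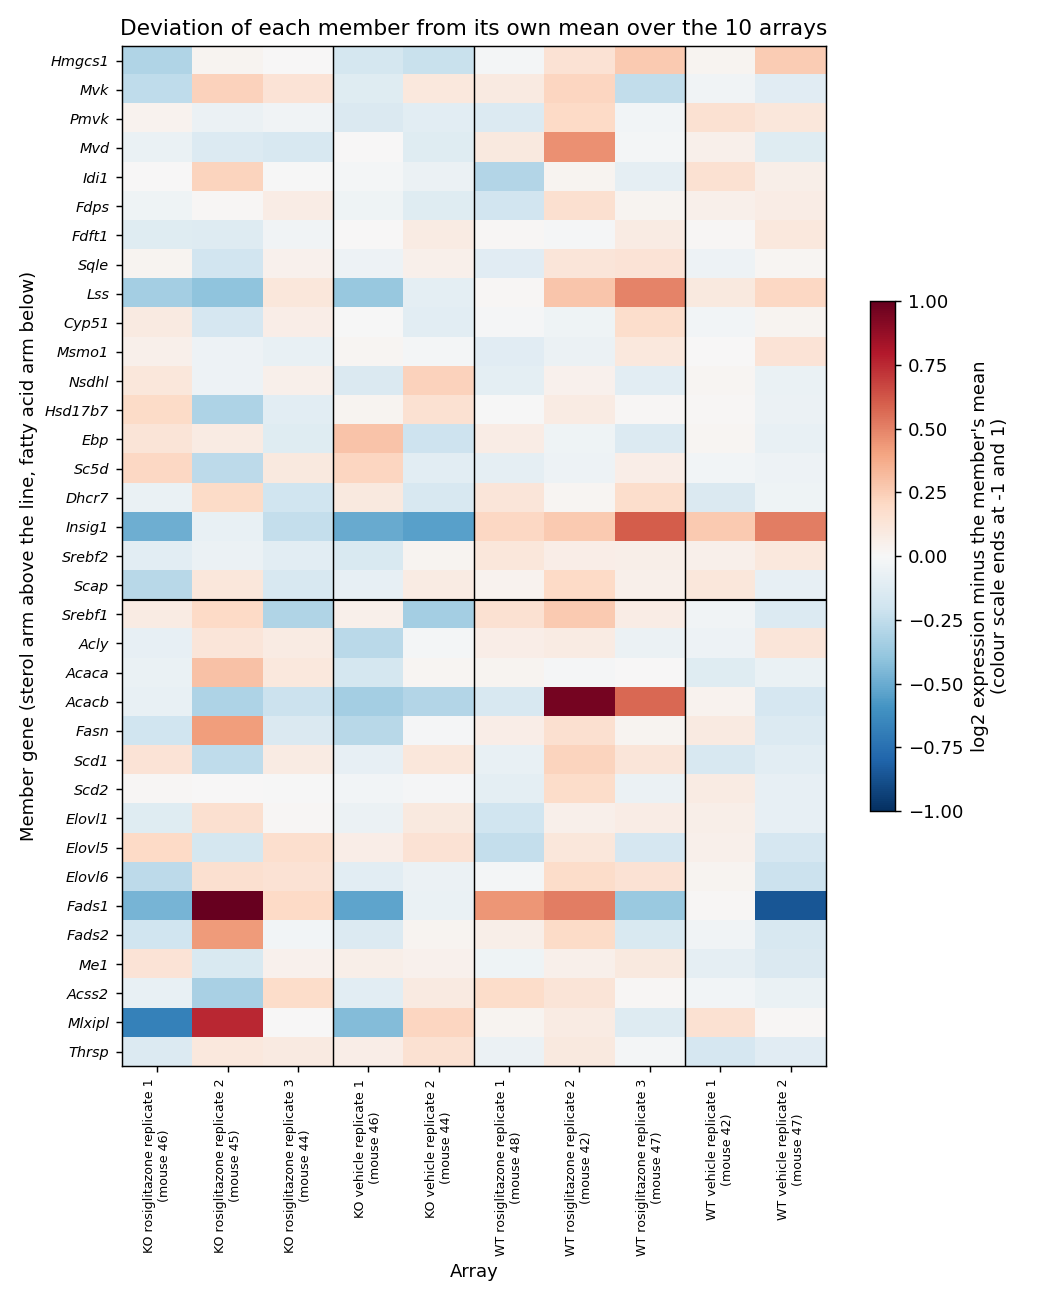
Deviation of each gene's log2 expression from its own mean over the 10 arrays, with sterol genes above the black line and fatty acid genes below it. Columns run from KO rosiglitazone to WT vehicle. Insig1 and Lss are blue in most KO columns and red in most WT columns, and Fads1 and Mlxipl vary most among arrays of 1 group.

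The regulatory genes of the arm differed less than Insig1. Srebf2, which encodes the SREBP that serves cholesterol synthesis, read 9.05, 9.10 and 9.05 in KO rosiglitazone, 9.01 and 9.19 in KO vehicle, 9.27, 9.23 and 9.22 in WT rosiglitazone and 9.21 and 9.26 in WT vehicle. The highest KO array, mouse 44 in vehicle, lay just below the lowest WT array. The averaged difference was -0.15 (SE 0.10, adjusted p = 1.00). Scap, the escort of SREBP, ranged over 7.63 to 8.10 and differed by -0.08 (SE 0.12).

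At the head of the pathway, Hmgcs1, which makes HMG-CoA, read 8.69, 9.02 and 8.99 in KO rosiglitazone, 8.81 and 8.76 in KO vehicle, 8.97, 9.14 and 9.25 in WT rosiglitazone and 9.01 and 9.24 in WT vehicle. Both KO vehicle arrays lay below every WT array, while 2 KO rosiglitazone arrays lay within the WT range. It differed by -0.34 (SE 0.17, adjusted p = 0.855) under vehicle and -0.25 (SE 0.13, adjusted p = 1.00) averaged over both treatments. Mvd, which decarboxylates mevalonate diphosphate, read 7.32, 7.25 and 7.23 in KO rosiglitazone, 7.39 and 7.27 in KO vehicle, 7.49, 7.85 and 7.37 in WT rosiglitazone and 7.44 and 7.27 in WT vehicle. The WT rosiglitazone array of mouse 42 was the highest of the 10. Mvd differed by -0.30 (SE 0.14, adjusted p = 0.999) under rosiglitazone and -0.03 (SE 0.17) under vehicle. Mvk and Pmvk, the kinases that phosphorylate mevalonate in turn, differed by 0.05 (SE 0.15) and -0.14 (SE 0.11) averaged over both treatments.

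At the isoprenoid and squalene steps the genotypes overlapped. Idi1, which isomerises isopentenyl diphosphate, read 9.60, 9.81 and 9.58 in KO rosiglitazone, 9.57 and 9.53 in KO vehicle, 9.30, 9.62 and 9.50 in WT rosiglitazone and 9.75 and 9.65 in WT vehicle. The groups overlapped, and its averaged difference was 0.06 (SE 0.11). Its other probe set differed by 0.06 (SE 0.12). Fdft1, squalene synthase, read 10.38, 10.37 and 10.46 in KO rosiglitazone, 10.51 and 10.58 in KO vehicle, 10.51, 10.49 and 10.58 in WT rosiglitazone and 10.51 and 10.61 in WT vehicle. KO overlapped WT, with an averaged difference of -0.07 (SE 0.10). Sqle, squalene epoxidase, read 9.61, 9.39 and 9.63 in KO rosiglitazone, 9.53 and 9.63 in KO vehicle, 9.47, 9.70 and 9.72 in WT rosiglitazone and 9.53 and 9.60 in WT vehicle. Its averaged difference of -0.04 (SE 0.11) was smaller than its standard error, as was that of Fdps, farnesyl diphosphate synthase, at -0.05 (SE 0.11).

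Lss, lanosterol synthase, which cyclises squalene epoxide to lanosterol, was the other gene of the arm whose averaged interval left out 0. It read 8.81, 8.74 and 9.26 in KO rosiglitazone, 8.77 and 9.05 in KO vehicle, 9.16, 9.42 and 9.64 in WT rosiglitazone and 9.24 and 9.35 in WT vehicle. Mouse 44 under rosiglitazone lay within the WT range, so the genotypes overlapped. The averaged difference was -0.42 (SE 0.15, adjusted p = 1.00), with an interval of -0.76 to -0.09. It was -0.47 (SE 0.17, adjusted p = 0.994) under rosiglitazone and -0.39 (SE 0.21) under vehicle. Without both arrays of mouse 46, which leaves mouse 44 alone in KO vehicle, the averaged difference was -0.35. Its promoter, printed above, held CCAAT and no E-box.

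The late enzymes, which turn lanosterol into cholesterol, had averaged intervals that included 0. Hsd17b7, a sterol ketoreductase, read 9.14, 8.63 and 8.84 in KO rosiglitazone, 8.97 and 9.10 in KO vehicle, 8.94, 9.02 and 8.96 in WT rosiglitazone and 8.96 and 8.89 in WT vehicle. Dhcr7, the reductase of the last step of 1 branch, read 8.83, 9.09 and 8.70 in KO rosiglitazone, 8.99 and 8.74 in KO vehicle, 9.02, 8.92 and 9.07 in WT rosiglitazone and 8.76 and 8.86 in WT vehicle. Both genes overlapped between genotypes, and averaged differences were -0.02 (SE 0.13) for Hsd17b7 and -0.01 (SE 0.12) for Dhcr7. Cyp51, Msmo1, Nsdhl, Ebp and Sc5d ranged over 9.01 to 9.35, 10.03 to 10.29, 10.09 to 10.47, 8.00 to 8.49 and 9.08 to 9.56, and their averaged differences were -0.06, -0.03, 0.07, 0.06 and 0.04. For 17 of 19 sterol genes, all but Lss and Insig1, the 95% interval of the averaged difference lay within 1.5-fold in either direction.

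**Figure D3:**
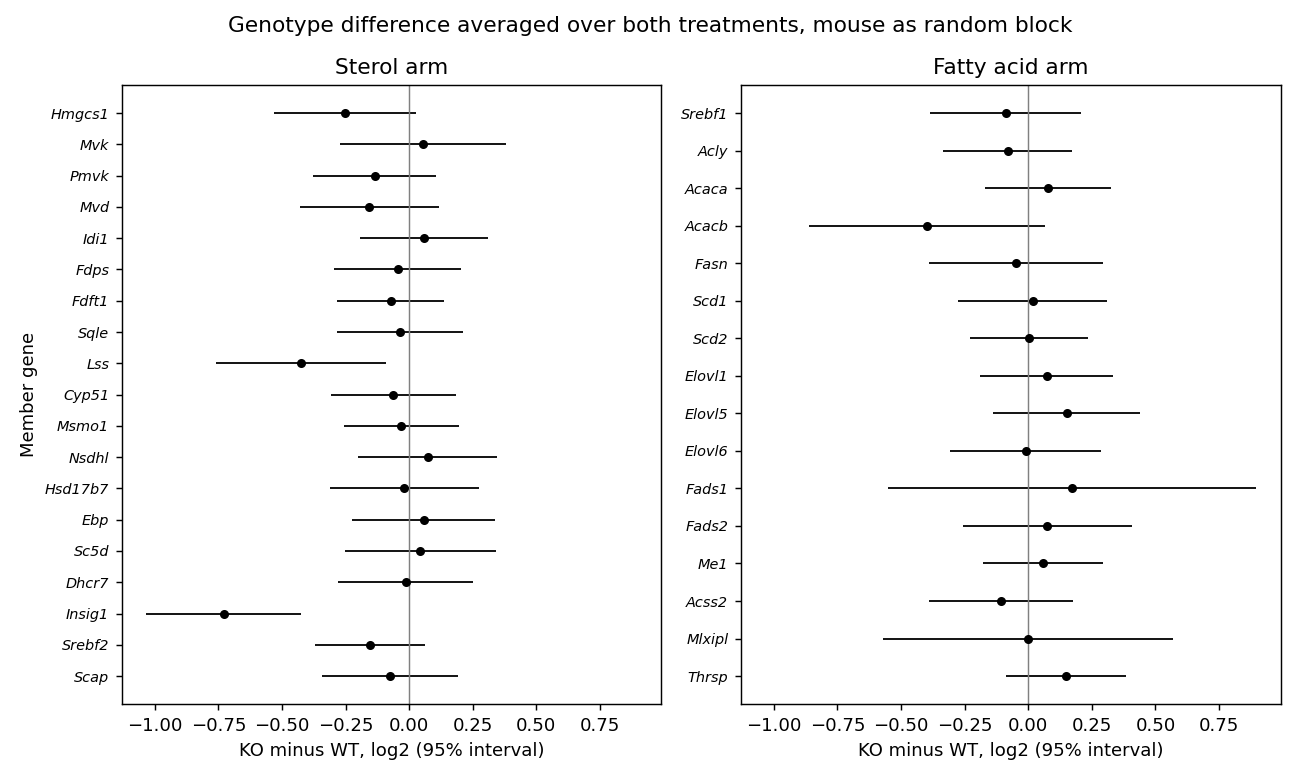
KO minus WT averaged over both treatments on the log2 scale for each gene, with the mouse as a random block. Points are limma estimates and lines are 95% intervals without adjustment. Intervals of Insig1 and Lss lie below 0, and Fads1 and Mlxipl have the widest.

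The drug difference of the sterol arm was near 0 in both genotypes. In KO, rosiglitazone minus vehicle was called for 0% of all probe sets, and 9 of 19 sterol genes were higher (median 0.00). In WT it was also called for 0% of probe sets, and 10 of 19 were higher (median 0.00). Averaged over both genotypes, where again 0% were called, 11 of 19 were higher (median 0.02). For all 19 genes the 95% interval of the averaged drug difference lay within 1.5-fold. At an unadjusted p under 0.05 there were 0 sterol genes in each of these 3 comparisons, against 706, 229 and 1067 of 23099 probe sets in KO, in WT and averaged.

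Single sterol genes ranged more widely within each genotype. Insig1 differed by 0.26 (SE 0.17) in KO and -0.03 (SE 0.17) in WT, and its KO rosiglitazone readings were highest in mice 45 and 44. Mvd, Idi1 and Dhcr7 differed by -0.06 (SE 0.16), 0.11 (SE 0.14) and 0.01 (SE 0.15) in KO. The same genes differed by 0.21 (SE 0.16), -0.23 (SE 0.14) and 0.20 (SE 0.15) in WT. In KO, Hsd17b7 differed by -0.17 (SE 0.15) and Fdft1 by -0.14 (SE 0.12). Lss was the 1 sterol gene higher under rosiglitazone in all 4 mice that gave both treatments, by 0.21 and 0.04 in KO mice 44 and 46 and by 0.17 and 0.29 in WT mice 42 and 47. That pattern occurred in 6.33% of all probe sets.

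In the fatty acid arm the genotypes overlapped for every gene. Averaged over both treatments, 9 of 16 genes were higher in KO (median 0.01), and 0 of 16 passed the threshold in any comparison. At an unadjusted p under 0.05 in limma there was Acacb alone, in KO minus WT under rosiglitazone and in the drug difference averaged over both genotypes. This was 6.25% of the 16 genes in each, near the 4.81% and 4.62% of all probe sets. No gene had all KO arrays on one side of all WT arrays. Acacb, the acetyl-CoA carboxylase of the mitochondrial surface, was the farthest from 0. It lay below the median of the tested probe sets and read 4.28, 4.05 and 4.14 in KO rosiglitazone, 4.02 and 4.06 in KO vehicle, 4.19, 5.32 and 4.93 in WT rosiglitazone and 4.39 and 4.19 in WT vehicle. The WT rosiglitazone arrays of mice 42 and 47 stood above the rest, while that of mouse 48 lay at the vehicle level. KO minus WT was -0.66 (SE 0.23, adjusted p = 0.958) under rosiglitazone, -0.25 (SE 0.29) under vehicle and -0.40 (SE 0.21) averaged over both. Over 19 alternatives the rosiglitazone value ran from -0.97, without the array of mouse 48 (adjusted p = 0.0769), to -0.41. Its promoter held 1 CCAAT box and none of the other motifs searched.

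The transcription factors of the arm overlapped between genotypes. Srebf1, which encodes the SREBP of fatty acid synthesis, read 7.66, 7.78 and 7.28 in KO rosiglitazone, 7.63 and 7.24 in KO vehicle, 7.73, 7.84 and 7.65 in WT rosiglitazone and 7.54 and 7.44 in WT vehicle. Its averaged difference was -0.09 (SE 0.13). Mlxipl, which encodes the carbohydrate-responsive factor ChREBP, read 4.54, 5.97 and 5.22 in KO rosiglitazone, 4.78 and 5.43 in KO vehicle, 5.24, 5.30 and 5.09 in WT rosiglitazone and 5.37 and 5.23 in WT vehicle. KO rosiglitazone alone spanned its whole range, with mouse 46 lowest and mouse 45 highest, and the averaged difference was 0.00 (SE 0.26). Thrsp, a lipogenic regulator, lay below the median of every array and read 2.24, 2.48 and 2.46 in KO rosiglitazone, 2.44 and 2.52 in KO vehicle, 2.31, 2.47 and 2.35 in WT rosiglitazone and 2.20 and 2.26 in WT vehicle. It differed by 0.25 (SE 0.14) under vehicle.

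For the enzymes that supply and build the chain, the genotypes overlapped. Acly, which makes acetyl-CoA from citrate, read 8.81, 9.02 and 8.98 in KO rosiglitazone, 8.63 and 8.88 in KO vehicle, 8.96, 8.98 and 8.84 in WT rosiglitazone and 8.85 and 9.02 in WT vehicle. Acss2, which makes it from acetate, read 8.74, 8.50 and 9.01 in KO rosiglitazone, 8.72 and 8.91 in KO vehicle, 9.01, 8.95 and 8.83 in WT rosiglitazone and 8.79 and 8.76 in WT vehicle. Averaged differences were -0.08 (SE 0.11) for Acly and -0.11 (SE 0.13) for Acss2, and Acss2 differed by -0.18 (SE 0.14) under rosiglitazone. Acaca, the cytosolic acetyl-CoA carboxylase, read 7.45, 7.81 and 7.62 in KO rosiglitazone, 7.34 and 7.54 in KO vehicle, 7.54, 7.50 and 7.52 in WT rosiglitazone and 7.39 and 7.45 in WT vehicle. Fasn, fatty acid synthase, read 9.29, 9.90 and 9.33 in KO rosiglitazone, 9.20 and 9.47 in KO vehicle, 9.55, 9.64 and 9.51 in WT rosiglitazone and 9.57 and 9.35 in WT vehicle. The highest Acaca and Fasn readings were both in the KO rosiglitazone array of mouse 45, and averaged differences were 0.08 (SE 0.11) and -0.05 (SE 0.15). Under rosiglitazone KO minus WT was 0.10 (SE 0.12) for this probe set of Acaca and 0.40 (SE 0.15) for its other one, so the 2 disagreed in size. Me1, malic enzyme, a source of NADPH, ranged over 9.82 to 10.11 and differed by 0.06 (SE 0.11).

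Desaturases and elongases modify the finished chain. Scd1 and Scd2 place the first double bond in saturated chains. Scd1 read 10.47, 10.08 and 10.42 in KO rosiglitazone, 10.25 and 10.45 in KO vehicle, 10.26, 10.56 and 10.45 in WT rosiglitazone and 10.17 and 10.23 in WT vehicle. Scd2 read 11.93, 11.92 and 11.91 in KO rosiglitazone, 11.89 and 11.90 in KO vehicle, 11.81, 12.10 and 11.86 in WT rosiglitazone and 11.99 and 11.83 in WT vehicle. Neither separated the genotypes, with averaged differences of 0.02 (SE 0.13) and 0.00 (SE 0.10). Elovl6, which extends saturated chains, read 8.55, 8.98 and 8.96 in KO rosiglitazone, 8.71 and 8.75 in KO vehicle, 8.80, 9.00 and 8.96 in WT rosiglitazone and 8.84 and 8.60 in WT vehicle. Elovl5, which extends polyunsaturated chains, read 10.53, 10.15 and 10.50 in KO rosiglitazone, 10.40 and 10.48 in KO vehicle, 10.09, 10.45 and 10.17 in WT rosiglitazone and 10.38 and 10.17 in WT vehicle. They differed by -0.01 (SE 0.13) and 0.15 (SE 0.13) averaged over both treatments, and Elovl1, for very long chains, by 0.07 (SE 0.12). Fads1, a desaturase of polyunsaturated fatty acids, had the widest range of the 35 genes. It read 6.14, 7.72 and 6.80 in KO rosiglitazone, 6.08 and 6.54 in KO vehicle, 7.04, 7.12 and 6.23 in WT rosiglitazone and 6.62 and 5.75 in WT vehicle. The KO rosiglitazone array of mouse 45 was highest and the WT vehicle array of mouse 47 lowest, and the averaged genotype difference was 0.17 (SE 0.33). Fads2, its partner enzyme, ranged over 9.22 to 9.84 and differed by 0.07 (SE 0.15). For 14 of 16 fatty acid genes, all but Acacb and Fads1, the interval of the averaged genotype difference lay within 1.5-fold.

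Rosiglitazone minus vehicle was above 0 for most fatty acid genes, without a call for any. In KO 10 of 16 genes were higher (median 0.11) and in WT 12 of 16 (median 0.14), where the medians of all probe sets were -0.01 and 0.01. The KO median was 0.038 without the rosiglitazone array of mouse 45 and 0.027 without the vehicle array of mouse 46. Within single mice it was 0.017 and 0.050 in KO mice 44 and 46 and 0.15 and 0.12 in WT mice 42 and 47. Averaged over both genotypes 14 of 16 were higher (median 0.08), against 49.4% of all probe sets. In the pairs of 1 mouse, 9 of 16 genes were higher under rosiglitazone in both KO mice and 12 of 16 in both WT mice, against 24.4% and 25.3% of all probe sets. In the sterol arm these counts were 5 and 7 of 19. Genes lower in both mice numbered 4 of 16 in KO and 1 of 16 in WT, and 4 of 19 sterol genes in each, where 25.4% and 25.8% of probe sets were. In all 4 mice 7 of 16 were higher (Srebf1, Acaca, Acacb, Scd2, Fads1, Me1 and Acss2), against the 6.33% of all probe sets given above. Some of these rises were near 0, such as 0.006 for Me1 and 0.010 for Scd2 in mouse 44. Over all KO arrays, which include mouse 45, Me1 and Acss2 differed by -0.04 (SE 0.13) and -0.06 (SE 0.16). These genes share the arrays they were read on, so their counts are not independent.

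**Figure D4:**
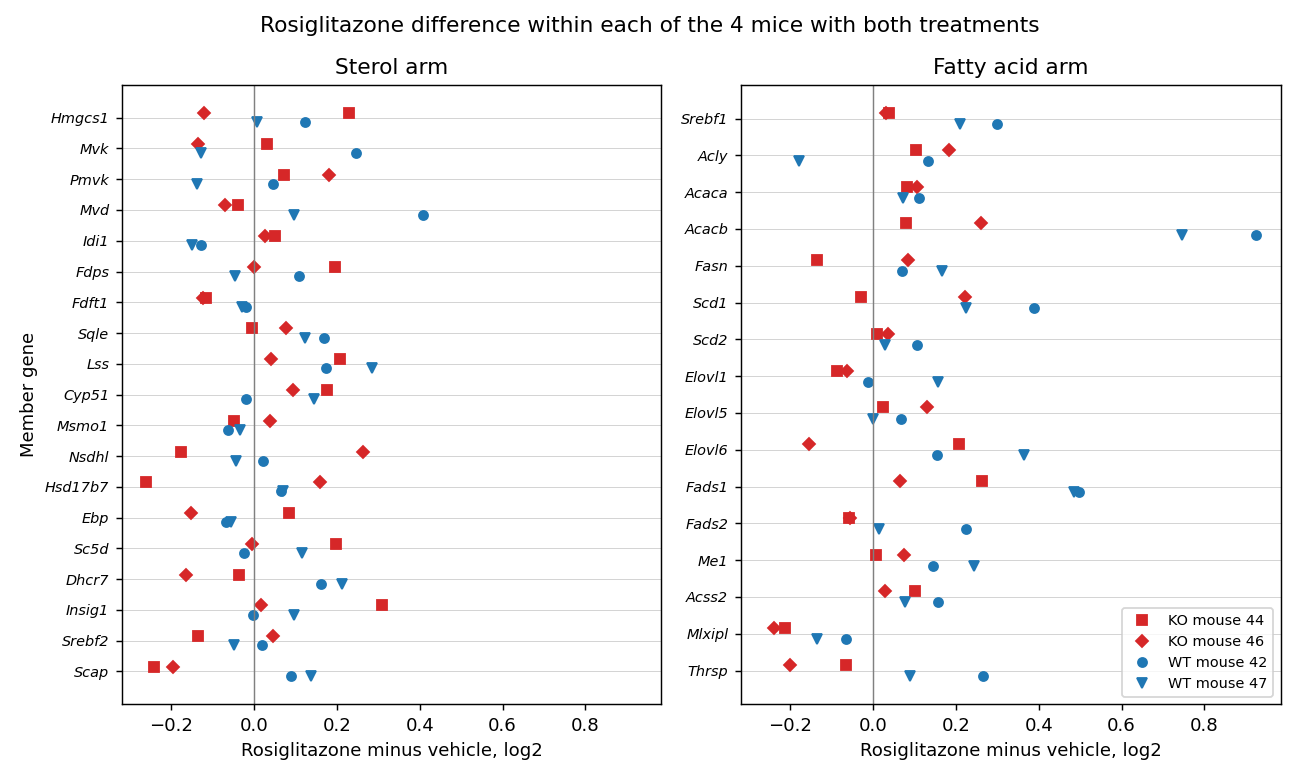
Rosiglitazone minus vehicle on the log2 scale within each of the 4 mice with both treatments, for the sterol arm (left) and the fatty acid arm (right). Red symbols are KO mice and blue symbols WT mice. Acacb in both WT mice lies farthest from 0, and 7 fatty acid genes have all 4 symbols above it.

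Within the paired WT mice the largest of these differences was in Acacb, which makes malonyl-CoA at the mitochondria. Rosiglitazone minus vehicle was 0.08 and 0.26 in KO mice 44 and 46 and 0.92 and 0.74 in WT mice 42 and 47. With the mouse as a fixed block, which leaves out mouse 48, the WT value was 0.83 (SE 0.12, adjusted p = 0.311). Over all 3 WT rosiglitazone arrays it was 0.52 (SE 0.26, adjusted p = 1.00), and averaged over both genotypes 0.40 (SE 0.14, adjusted p = 0.999). Over all arrays Fads1 had the largest drug difference in each genotype. It differed by 0.58 (SE 0.44) in KO and 0.61 (SE 0.44) in WT, and within mice by 0.26 and 0.07 in KO and 0.50 and 0.49 in WT. Leaving out single arrays, the KO difference ran from 0.16 without the rosiglitazone array of mouse 45 to 0.95 without that of mouse 46, and the WT difference from 0.18 without the vehicle array of mouse 47 to 1.05 without that of mouse 42. Markers of goblet cells, the mucus secretors, averaged 7.98 on the array of mouse 45 and 3.70 to 6.02 on the other 9, and their part in these values was not tested.

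Other fatty acid genes had smaller drug differences than Fads1 over all arrays. Srebf1 differed by 0.14 (SE 0.18) in KO and 0.25 (SE 0.18) in WT, and was higher in all 4 mice. Scd1 differed by -0.03 (SE 0.16) in KO and 0.22 (SE 0.16) in WT, Elovl6 by 0.10 (SE 0.16) in KO and 0.20 (SE 0.16) in WT, and Fasn by 0.17 (SE 0.19) in KO and 0.11 (SE 0.19) in WT. Without the array of mouse 45 the KO difference was -0.03 for Fasn and 0.03 for Srebf1, and without the KO vehicle array of mouse 44 that of Srebf1 was -0.06. Acaca differed by 0.19 (SE 0.14) in KO, where its second probe set gave 0.32 (SE 0.17), and by 0.10 (SE 0.14) in WT, where the second gave -0.15 (SE 0.17). The probe sets of Acaca thus went opposite ways in WT. Scd2 differed by 0.02 (SE 0.13) in KO and 0.01 (SE 0.13) in WT. Over all arrays Mlxipl differed by 0.14 (SE 0.34) in KO and -0.09 (SE 0.34) in WT. In the 4 mice with both treatments, which leave out mouse 45, it differed by -0.21 and -0.24 in KO and -0.07 and -0.13 in WT. For 14 of 16 genes, all but Acacb and Fads1, the interval of the averaged drug difference lay within 1.5-fold.

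The difference between the drug responses, KO minus WT, was called for 0% of probe sets and for 0 of 35 genes, with 0 of 35 genes and 536 of 23099 probe sets at an unadjusted p under 0.05 in limma. Sterol genes were lower in 11 of 19 (median -0.03) and fatty acid genes in 10 of 16 (median -0.02), where the median of all probe sets was -0.03. The largest sizes were Acacb at -0.41 (SE 0.37), Idi1 at 0.34 (SE 0.20), Insig1 at 0.29 (SE 0.24) and Mvd at -0.27 (SE 0.22). In the 4 mice with both treatments the value for Acacb was -0.66 (adjusted p = 0.957 with the mouse as a fixed block). Precision was lowest here, since 9 of 19 sterol and 4 of 16 fatty acid genes had an interval within 1.5-fold. KO mice went one way and WT mice the other for 6 of 35 genes, a pattern of 11.8% of all probe sets.

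Neighbouring genes of the same pathways were also without a call. Of 14 further sterol pathway genes 8 were higher in KO averaged over both treatments (median 0.03). The largest sizes were those of Idi2 (0.25), Lbr (0.20) and Pgrmc2 (-0.15). Idi2 was dim, at 1.63 to 2.41, below the median of every array. Of 25 further fatty acid pathway genes 17 were higher (median 0.04), with Idh1, a source of NADPH, at -0.35 (SE 0.15) and Aacs, which activates acetoacetate for lipid synthesis, at -0.28 (SE 0.12). Of 11 genes for sterol export, transport and esterification 5 were higher (median -0.11), and Mylip, an LXR target, differed by -0.47 (SE 0.26). Under vehicle 7 of the 11 were higher in KO (median 0.06), while Mylip, Nr1h3, which encodes LXRα, and Abcg1, a sterol exporter, differed by -0.83 (SE 0.41), -0.65 (SE 0.30) and -0.60 (SE 0.43), and the last 2 were dim. Under rosiglitazone Mylip, Nr1h3 and Abcg1 differed by -0.15 (SE 0.33), 0.00 (SE 0.25) and 0.01 (SE 0.35). For the drug averaged over both genotypes, 18 of 25 fatty acid pathway genes (median 0.04), 6 of 14 sterol pathway genes (median -0.01) and 7 of 11 export genes (median 0.07) were higher.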

How the data were processed

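RNA of 10 organoid samples was hybridised to 1 array each. The authors deposited log2 expression values from RMA for 35556 probe sets, per the submitters' processing notes, which name RMA without a version, and no source used here states the chip definition. RMA corrects background, normalizes arrays by quantiles and summarises probes, which can compress differences of dim probe sets. Arrays give no count depth, so their number limits the precision.

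Genes were named through the platform annotation, which listed 23099 probe sets, 21218 of them with a single symbol and 1881 with several. All 23099 were tested with limma 3.58.1 in R 4.3.3 (lmFit with a mean per group over all 10 arrays, eBayes, two-sided, Benjamini-Hochberg adjustment, threshold 0.05). There were 7 comparisons, of which 5 had no block. The 2 averaged over treatments or genotypes took the mouse as a random block (duplicateCorrelation, consensus correlation 0.438, statmod 1.5.0). The comparisons share arrays. Intervals are 95% and not adjusted. The scripts were tested on simulated data.

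Values on every array are given for 10 set genes and for the 3 genes of each arm with the largest difference in each comparison. Of further lists, counts and up to 3 genes with the largest difference are given. The genes, lists and tests were chosen with earlier results of these data known. The mouse pairs the arrays, since the labels name each donor, and 4 of 6 mice gave both treatments. As a pairing check across probe sets, differences between the 2 mice of a genotype were compared between treatments, giving r = 0.487 for KO (mice 44 and 46) and r = 0.44 for WT (mice 42 and 47). Replicate numbers marked the same mouse in 1 of 4 cases. Replicates of a group come from different mice. Alternatives were other blocks, centring, repeated quantile normalization, other sets of probe sets or arrays, another variance model and leaving out each array. Promoters came from the RefSeq table of GRCm38.p6, searched on both strands.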

Additional observations from a re-analysis of the deposited data

Results flagged for a closer look

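For 6 of the 35 genes the mice with both treatments went one way in KO and the other way in WT, a pattern that 11.8% of all probe sets showed. None of these differences was past the threshold in limma's test of the difference between the responses, and with the mouse as a fixed block, which tests the difference within these 4 mice, the adjusted p was between 0.957 (Scap) and 0.982 (Fads2) for the 6 genes. Values are rosiglitazone minus vehicle on the log2 scale. In the sterol arm, Mvd came to -0.04 and -0.07 in KO mice 44 and 46 and to 0.41 and 0.10 in WT mice 42 and 47, with a difference of the means of -0.31. Dhcr7 came to -0.04 and -0.17 in these KO mice and to 0.16 and 0.21 in these WT mice, a difference of -0.29. Scap, the escort of SREBP, came to -0.24 and -0.20 in KO and to 0.09 and 0.14 in WT, a difference of -0.33. The other probe set of Scap, dim at a mean of 2.75, differed over all arrays by 0.07 (SE 0.16) in KO and 0.05 (SE 0.16) in WT. Idi1 ran the other way, at 0.05 and 0.03 in KO and -0.13 and -0.15 in WT, a difference of 0.18. Over all arrays Mvd, Idi1 and the brighter probe set of Scap kept opposite directions. Dhcr7 did not, at 0.01 (SE 0.15) in KO and 0.20 (SE 0.15) in WT.

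In the fatty acid arm, Fads2 came to -0.06 and -0.06 in KO mice 44 and 46 and to 0.22 and 0.01 in WT mice 42 and 47, a difference of -0.18. Thrsp came to -0.07 and -0.20 in KO and to 0.27 and 0.09 in WT, a difference of -0.31, on a probe set below the median of every array. Over all arrays Fads2 differed by 0.12 (SE 0.19) in KO and 0.13 (SE 0.19) in WT. Its opposite directions thus held only within the paired mice, and the difference between its responses over all arrays was -0.01 (SE 0.27). Thrsp kept opposite directions over all arrays, at -0.09 (SE 0.13) in KO and 0.14 (SE 0.13) in WT.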

How the results depend on the processing

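Of the genes given on every array, none passed the threshold under any alternative to the comparisons in which they were among the named genes, and no difference larger than its standard error turned direction. Counts of probe sets called for KO minus WT under vehicle were 0, and 1 after centring, repeated quantile normalization or with bright probe sets, 2 with a trended robust variance, 4 with the compared groups alone, 6 with the 4 paired mice and 0 to 6 leaving out single arrays. Under rosiglitazone they were 5, and 1 after repeated quantile normalization, with all probe sets of the table, with the compared groups alone or without mouse 46, 16 with the 4 paired mice and 1 to 23 leaving out single arrays. Averaged over both treatments they were 10, and 5 after repeated quantile normalization or with bright probe sets, 1 with all probe sets of the table or without mouse 46, 6 with a trended robust variance, 41 with the 4 paired mice and 1 to 26 leaving out single arrays. Of the counts from leaving out single arrays, the highest came without WT rosiglitazone replicate 1 (mouse 48).

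With the mouse as a random block, 1 probe set was called for rosiglitazone in KO and 1 for KO minus WT under vehicle, and with no replicate block 18 were called for KO minus WT averaged. With the mouse as a fixed block, or in the 4 paired mice, the drug median of the sterol arm was 0.036 in KO and 0.047 in WT, and the difference of responses of the fatty acid arm had a median of -0.15. The block changed no other call.

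After centring, sterol medians were 0.073 for the drug in KO, -0.021 for KO minus WT under rosiglitazone, 0.041 for the difference of responses, -0.012 for KO minus WT averaged and 0.069 for the drug averaged. Without mouse 46, an alternative chosen after seeing the data, KO minus WT under vehicle had medians of -0.088 (sterol) and 0.12 (fatty acid), and the averaged drug median of the sterol arm was 0.057. Leaving out single arrays, sterol medians ran from -0.023 to 0.036 for the drug in KO, -0.012 to 0.047 in WT, -0.088 to -0.026 for KO minus WT under vehicle, -0.12 to -0.014 under rosiglitazone, -0.060 to 0.054 for the difference of responses, -0.081 to -0.028 for KO minus WT averaged and -0.016 to 0.031 for the drug averaged. Fatty acid medians ran from -0.067 to 0.12 for KO minus WT under vehicle and -0.14 to 0.061 for the difference of responses. The causes of these shifts were not tested. The small number of arrays limits all of these values.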

Other observations

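The KO rosiglitazone array of mouse 45 was the highest of the 10 for 6 of 16 fatty acid genes (Acaca, Fasn, Elovl1, Fads1, Fads2 and Mlxipl) and the lowest for 6 of 19 sterol genes (Fdft1, Sqle, Lss, Cyp51, Hsd17b7 and Sc5d). It was also the highest for 3 sterol genes and the lowest for 3 fatty acid genes. The WT rosiglitazone array of mouse 42 was the highest for 4 sterol and 5 fatty acid genes, that of mouse 47 for 5 sterol and 0 fatty acid genes, and both were the lowest for 0 genes of either arm. The share of all probe sets for which each array was the highest or lowest was not counted. Without it, these counts show nothing particular to either arm, and no difference between the arms was tested. On the array of mouse 45 the mean of the deep crypt secretory markers was 4.97 and that of the goblet markers 7.98, against 2.50 to 3.71 and 3.70 to 6.02 on the other 9 arrays. The part of these markers in the extreme readings was not tested.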
